A study of Mus musculus with 56 samples.

Results

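The small proline-rich (Sprr) genes were followed across single cells of mouse colon tumors. The 7 genes described, Sprr1a, Sprr1b, Sprr2a3, Sprr2b, Sprr2d, Sprr2h and Sprr3, were all the rows of the expression table that carried these symbols, out of 24410 rows. A further 8 rows carried a Sprr symbol, and Sprr2a1 and Sprr2a2 among them are described because their sequence is nearly that of Sprr2a3. The family was chosen by its measured spread in the same cells: Sprr2a3 had a standard deviation of 4.75 in log2(TPM + 1) among cells, which placed it at rank 2 of all rows. That spread, the level of Sprr2a3 and its partners are therefore given as descriptions.

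Small proline-rich proteins are short, rich in proline, cysteine and glutamine, and are built from repeated peptides between conserved ends. In skin and other stratified epithelia they are cross-linked by transglutaminases into the cornified envelope, the protein shell beneath the membrane of a dying keratinocyte. The genes lie in the epidermal differentiation complex with involucrin, loricrin and the S100 genes. In the simple epithelium of the intestine, Sprr2a genes are known as genes that respond to bacteria and injury.

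The cells came from 1 male ApcMin/+ mouse, which carries a truncating mutation of the Wnt pathway gene Apc and develops intestinal tumors. Its drinking water held 2% dextran sulfate sodium (DSS), which injures the colonic lining, for 5 days from 10 weeks of age, and 3 colon tumors were pooled at 12 weeks. Living cells with Epcam and Cd24 and without Cd31 and Cd45 were sorted singly, cDNA was made on beads (Bead-seq), and cDNA in which a 32-cycle PCR found Lgr5, a stem cell receptor gene, was sequenced. There was 1 group, with no wild-type mouse, untreated mouse or normal colon beside it, so nothing below separates the Apc mutation from DSS.

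The table gave TPM, a normalized transcript abundance that corrects for transcript length and library size and keeps no read depth. In 6 pairs among the 56 libraries, the profiles were near copies (Pearson's r 0.957 to 0.992, the next highest r being 0.782), and each pair was averaged, which left 50 cells. Epcam, Cd24a, Krt8 and Krt18 reached 1 TPM in all 50 cells, and Pecam1 (CD31) and Ptprc (CD45) in 0. Lgr5 reached 1 TPM in 38 of the 50 cells. The number of genes at 1 TPM or more per cell ranged from 1316 to 7234. Cells are named by the i7 and i5 index of their library. Cells of 1 mouse are not replicates, so no test was made, and Spearman's rho across cells is a description of cells that share a mouse, a sort and a sequencing pool.

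The coding sequences are shown first because reads cannot easily be divided between genes this alike. They are from GENCODE M21 (GRCm38, chromosome 3, plus strand). Capitals in the first pair mark the bases at which Sprr2a3 and Sprr2a1 differ, and capitals in Sprr2b mark the 95 bases that lie in runs of 25 or more also found in the Sprr2a3 coding sequence.
Sprr2a3: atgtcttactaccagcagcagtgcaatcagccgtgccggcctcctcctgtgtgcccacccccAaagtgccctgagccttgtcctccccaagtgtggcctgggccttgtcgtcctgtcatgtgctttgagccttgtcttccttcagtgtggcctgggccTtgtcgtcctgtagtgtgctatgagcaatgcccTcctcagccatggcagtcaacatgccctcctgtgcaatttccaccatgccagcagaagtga
Sprr2a1: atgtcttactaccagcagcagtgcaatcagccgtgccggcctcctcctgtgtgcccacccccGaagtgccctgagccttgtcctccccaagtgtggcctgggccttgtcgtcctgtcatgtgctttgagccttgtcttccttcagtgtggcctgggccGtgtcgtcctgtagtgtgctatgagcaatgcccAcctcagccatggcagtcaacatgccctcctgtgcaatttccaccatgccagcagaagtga
Sprr2b: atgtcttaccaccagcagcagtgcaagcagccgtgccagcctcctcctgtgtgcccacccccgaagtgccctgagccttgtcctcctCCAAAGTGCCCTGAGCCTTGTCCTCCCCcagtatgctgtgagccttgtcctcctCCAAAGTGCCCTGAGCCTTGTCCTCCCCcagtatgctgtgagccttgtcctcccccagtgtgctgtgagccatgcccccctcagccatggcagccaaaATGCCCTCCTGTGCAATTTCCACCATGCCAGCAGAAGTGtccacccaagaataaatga

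The Sprr2a3 coding sequence (252 bases, chr3:92288588-92288839) lies within a single exon. It differs from Sprr2a1 (chr3:92219092-92219343) by A63G, T159G and T192A, counted from 1 at the first base of the start codon with the Sprr2a3 base first, so that 98.8% of bases were identical. Each difference is at position 3 of a proline codon: cca against ccg, cct against ccg, and cct against cca. All 3 are therefore silent. Sprr2a2 carries the same bases as Sprr2a1 at these 3 positions.

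Over whole transcripts the likeness was less even. Of the distinct 50-base stretches of the 2 annotated Sprr2a3 transcripts (682 and 2880 bases), 61.1% (1730 of 2833) also occur in another Sprr row. For Sprr2a1 the share was 96.3% (2844 of 2954), and 58.6% of its stretches occur in Sprr2a3. Sprr2a1 thus has little sequence of its own, since the rest lies largely in Sprr2a2, whose annotated span overlaps it. For Sprr2b (coding sequence 297 bases, chr3:92317449-92317745) the share was 14.1% (101 of 715), and 6.29% with Sprr2a3 alone. For Sprr2d it was 4.27%, and for Sprr2h, Sprr1a, Sprr1b and Sprr3 it was 0%. As a share of the longer coding sequence, Sprr2a3 matched Sprr2b at 74.7% of bases, Sprr2d at 73.6%, Sprr2h at 60.9%, Sprr1a at 40.2%, Sprr1b at 37.9% and Sprr3 at 24.3%. RSEM divides a read that fits several transcripts by estimate, so values within the Sprr2a trio are uncertain. At 50 bases, Sprr2b consists mostly, and Sprr1a and Sprr3 wholly, of stretches found in no other Sprr row. At 25 bases the shared part of Sprr2b was larger, 39.6% (283 of 715), and 21.5% with Sprr2a3 alone. Genes outside the family were not compared, and read length was not taken into account.

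Sprr2a3 (ENSMUSG00000074445, chr3:92285417-92291405, plus strand) was the dominant member. It reached 1 TPM in 38 of 50 cells, a share of 76.0% (exact Clopper-Pearson 95% interval 61.8% to 86.9%, which covers counting error only). Across the 50 cells its level ranged from 0 to 9019 TPM with a median of 299 TPM. It was at 100 TPM or more in 29 cells and at 1000 TPM or more in 16 cells.

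Most values lay either below 10 TPM or above 100 TPM. Sprr2a3 was listed at 0 in 12 cells, lay between 1.28 and 8.06 TPM in 6 cells and from 10 to 100 TPM in only 3 cells, and all others were above 100 TPM. In the highest cell, N707-N503, Sprr2a3 took 0.902% of all TPM and ranked 9th among all genes, and the next cell, N706-N504, had 8061 TPM. The 6 lowest values above 0 were between 0.0159% and 0.204% of the highest Sprr2a3 level in a library that shared an index. Whether such values come from those libraries was not tested. With a threshold of 10 TPM, 32 of 50 cells held Sprr2a3, and with 0.1% of that highest level added to 1 TPM, 33 did.

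Libraries that were near copies of each other gave Sprr2a3 values within 1.06 to 1.89-fold. The closest pair had 3783 and 3582 TPM, and the widest had 5650 and 2995 TPM. This spread within pairs was small beside the range among cells. Sprr2a3 also differed among index sets. Its median was 48.9 TPM in the 32 cells with i7 indexes N704 to N707 (23 at 1 TPM or more) and 679 TPM in the 18 cells with N708 to N710 (15 at 1 TPM or more). By i5 index the medians were 269 TPM in 26 cells with N502 to N505 and 305 TPM in 27 cells with N506 to N517. The i5 sets overlap, because 3 averaged cells carry an i5 index from each. The ranges overlapped in both splits, from 0 to 9019 TPM for N704 to N707 and from 0 to 4322 TPM for N708 to N710. What the i7 sets stand for is not given in the labels, so index and cell state cannot be told apart. All averaged cells carry i7 indexes of N708 to N710, so averaging cannot be told apart from the i7 set either.

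Sprr2b (ENSMUSG00000050092, chr3:92316620-92318085, plus strand), the next gene along the cluster, reached 1 TPM in 31 of 50 cells (62.0%, interval 47.2% to 75.3%). It was far lower than Sprr2a3 on the TPM scale, with a median of 7.04 TPM and a highest value of 447 TPM, in the same cell N707-N503. Only 2 cells had Sprr2b at 100 TPM or more. Sprr2a1 (ENSMUSG00000078664, chr3:92215799-92221911, plus strand), which is not among the 7 genes, also reached 1 TPM in 31 cells, with a median of 21.6 TPM and a highest value of 653 TPM. Sprr2a2 reached 1 TPM in 1 cell, at 4.23 TPM. It was above 0 in 6 cells, in 3 of which Sprr2a3 was listed at 0.

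Sprr1a (ENSMUSG00000050359, chr3:92483952-92485895, minus strand), a precursor of the envelope in keratinocytes, was rare. Only 4 of 50 cells held it at 1 TPM or more (8.0%, interval 2.22% to 19.2%). The values were 277 TPM in N708-N508, 208 TPM in N705-N505, 38.3 TPM in N704-N508 and 9.61 TPM in the averaged cell N709-N503/N709-N517. The first pair of these values lay near the median of Sprr2a3. Sprr2a3 in the same cells was 312, 0, 3043 and 1510 TPM, so Sprr1a occurred both with and without Sprr2a3.

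Sprr3 (ENSMUSG00000045539, chr3:92456502-92458720, minus strand), known from esophagus and other internal stratified epithelia, reached 1 TPM in 2 cells (4.0%, interval 0.488% to 13.7%), at 2.02 and 1.14 TPM, and 1 further value above 0 was 0.94 TPM. Sprr1b (chr3:92436809-92438789), Sprr2d (chr3:92339140-92340873) and Sprr2h (chr3:92385685-92387324) were listed at 0 in all 56 libraries. A count of 0 of 50 cells has an interval that reaches 7.11%. The other Sprr rows, Sprr2e, Sprr2f, Sprr2i, Sprr2j-ps, Sprr2k and Sprr4, were also listed at 0 throughout. By median TPM the 7 genes thus ordered as Sprr2a3, then Sprr2b, then the other 5 with medians of 0. The intervals of the shares of cells overlapped between Sprr2a3 and Sprr2b, and between Sprr1a and Sprr3.

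**Figure D1:**
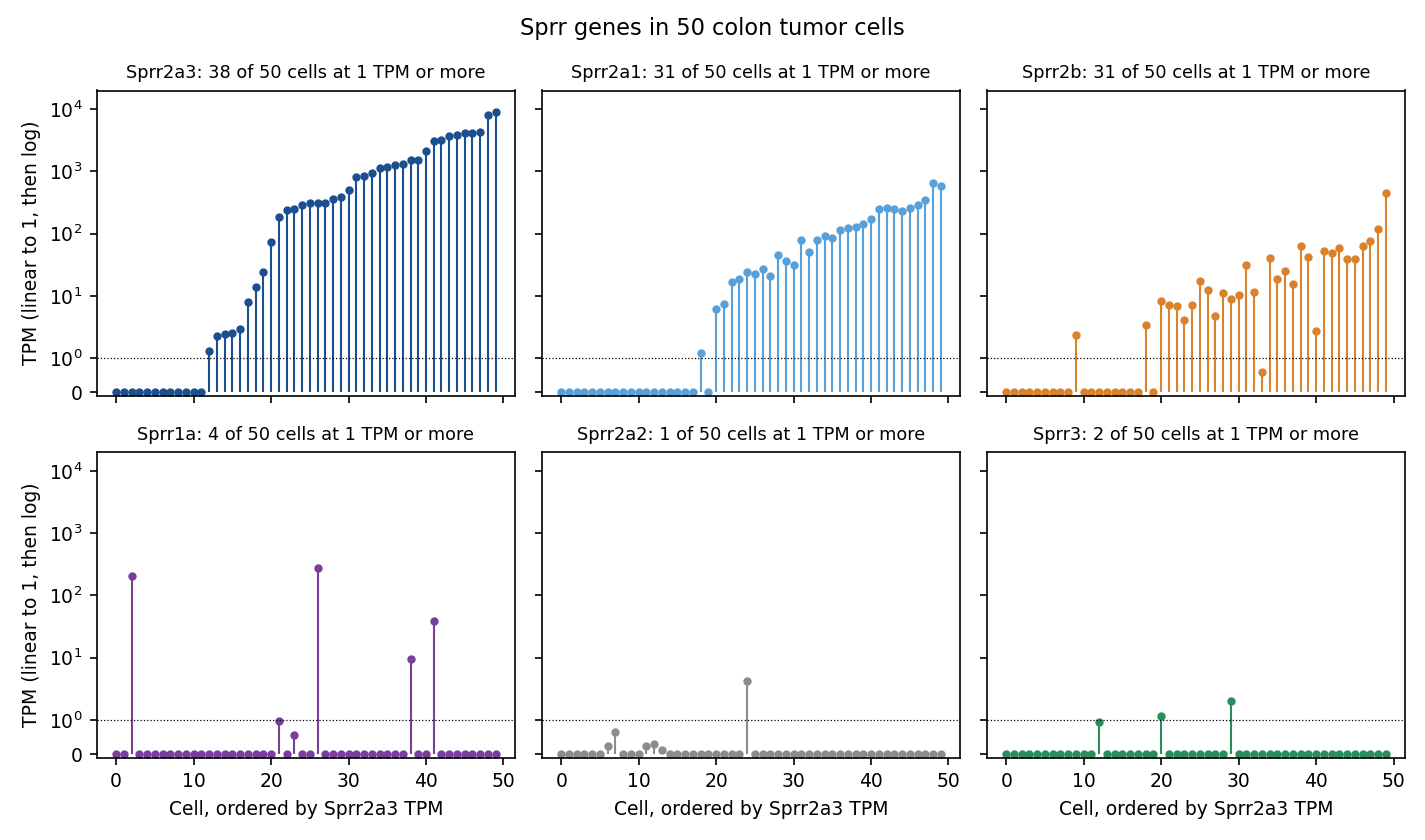
TPM of 6 Sprr genes in each of 50 cells, all ordered from low to high Sprr2a3 along the horizontal axis, on a vertical axis that is linear to 1 TPM (dotted line) and logarithmic above. Sprr2a1 and Sprr2b rise along the same order as Sprr2a3, whereas the 4 cells with Sprr1a at 1 TPM or more are scattered along it.

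Agreement between members was then read against their likeness. Sprr2a3 and Sprr2a1 had a rho of 0.98 over 50 cells, and 0.99 over the 31 cells in which both reached 1 TPM. Each of the 31 cells with Sprr2a1 also held Sprr2a3. In the 29 cells with Sprr2a3 at 100 TPM or more, Sprr2a1 was a median of 8.01% of Sprr2a3, from 4.03% to 12.8%, with a coefficient of variation of 20.5%. In the 16 cells with 1000 TPM or more the range narrowed to 6.15% to 9.35%. In TPM, expression of both genes and the estimated division of shared reads cannot be told apart.

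Sprr2b followed Sprr2a3 less tightly and shares less of its sequence with other Sprr rows than Sprr2a1 does. Their rho was 0.92 over 50 cells, and 0.82 over the 30 cells in which both reached 1 TPM. In the 29 cells with Sprr2a3 at 100 TPM or more, 28 held Sprr2b at 1 TPM or more. The ratio varied widely, however, with a median of 1.76% of Sprr2a3, a range from 0.0615% to 5.75% and a coefficient of variation of 59.8%. N704-N503 had 942 TPM of Sprr2a3 with 0.58 TPM of Sprr2b, and N705-N507 had 2118 TPM with 2.68 TPM. The order Sprr2a3 above Sprr2a1 above Sprr2b was found in 29 cells.

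Sprr2b also differed between near-copy libraries. In 1 pair Sprr2b was 0 in N709-N506 and 14.2 TPM in N710-N504, with Sprr2a3 at 266 and 320 TPM. In another it was 14.7 and 62.6 TPM, with Sprr2a3 at 4200 and 3949 TPM. Spread in the Sprr2b ratio between cells therefore includes spread of this size between libraries of like profile. Sprr2b exceeded Sprr2a3 in 1 cell, N708-N503, with 2.31 TPM against 0, and this cell had the fewest genes of all, 1316. All 3 of Sprr2a3, Sprr2a1 and Sprr2b were listed at 0 in 11 cells. Sprr1a and Sprr3 were too rare for a correlation to be read, and Sprr1a was found together with Sprr2a3 in 3 of its 4 cells.

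**Figure D2:**
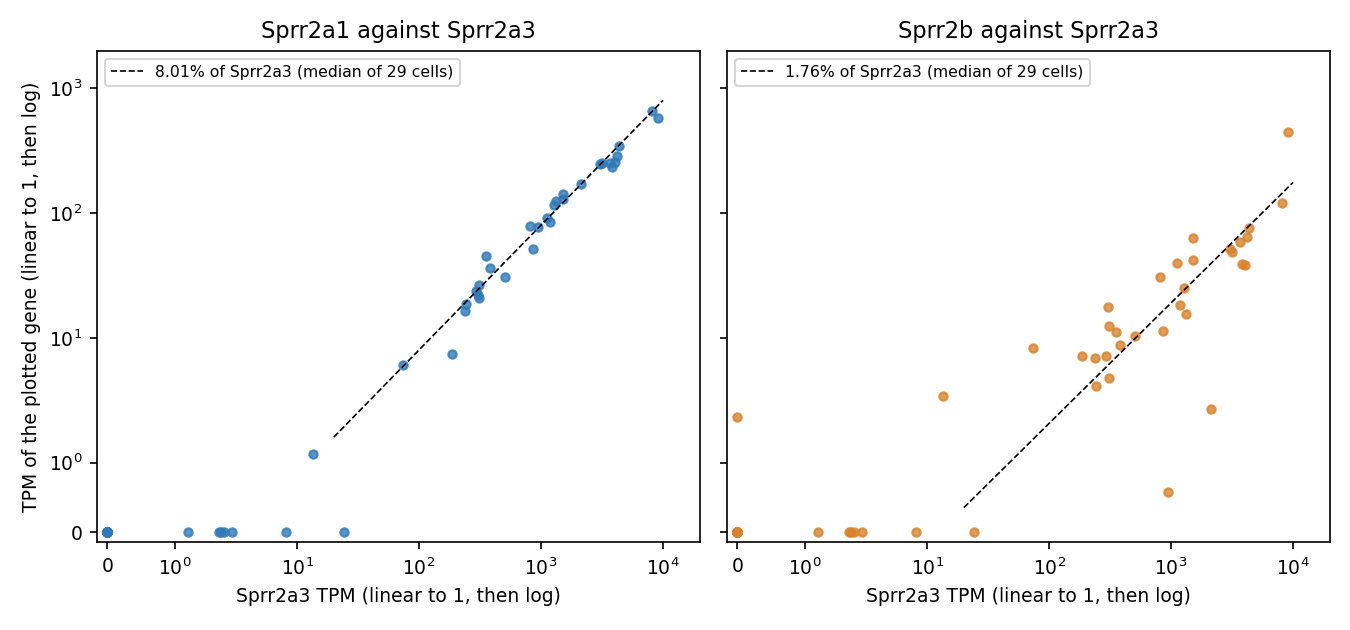
TPM of Sprr2a1 (left) and Sprr2b (right) against Sprr2a3 in 50 cells, each point a cell, on axes linear to 1 TPM and logarithmic above, with dashed lines at the median ratios of 8.01% and 1.76%. Sprr2a1 lies close to its line, and Sprr2b scatters widely around its own.

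The promoter windows of a high, a low and an unseen member are shown next. They are RefSeq sequences (GRCm38.p6) around the annotated start, 5′ to 3′ on the plus strand: chr3:92285054-92285353 for Sprr2a3, chr3:92316455-92316754 for Sprr2b and chr3:92385435-92385734 for Sprr2h. Capitals mark matches to 7 motifs searched on both strands. The Sprr2a3 window ends before the GENCODE gene begins at 92285417, so the annotations place its start differently.
Sprr2a3 promoter: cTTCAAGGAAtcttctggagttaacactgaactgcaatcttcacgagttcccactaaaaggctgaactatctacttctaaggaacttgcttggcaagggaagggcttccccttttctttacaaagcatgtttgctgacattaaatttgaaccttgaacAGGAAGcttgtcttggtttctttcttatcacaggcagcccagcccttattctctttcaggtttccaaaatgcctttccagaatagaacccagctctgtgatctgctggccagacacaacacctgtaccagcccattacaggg
Sprr2b promoter: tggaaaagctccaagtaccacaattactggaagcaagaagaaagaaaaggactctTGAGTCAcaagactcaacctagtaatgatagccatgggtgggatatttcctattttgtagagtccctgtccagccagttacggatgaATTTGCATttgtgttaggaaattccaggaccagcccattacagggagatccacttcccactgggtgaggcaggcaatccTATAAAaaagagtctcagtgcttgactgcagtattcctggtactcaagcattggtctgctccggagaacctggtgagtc
Sprr2h promoter: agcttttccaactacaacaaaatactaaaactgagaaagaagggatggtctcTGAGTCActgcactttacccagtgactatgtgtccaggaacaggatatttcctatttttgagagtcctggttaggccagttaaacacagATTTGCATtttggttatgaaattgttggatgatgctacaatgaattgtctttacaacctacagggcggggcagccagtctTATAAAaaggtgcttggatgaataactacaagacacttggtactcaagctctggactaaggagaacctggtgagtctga

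Sprr2b and Sprr2h held the same 3 motifs, in the same order. These were the AP-1 motif TGANTCA (found in 7.81% of 32851 RefSeq promoters of the same length), the octamer ATGCAAAT (1.74%) on the minus strand, and the TATA box TATAAA (13.6%). Their first bases lay at -195, -108 and -29 from the start in Sprr2b and at -198, -109 and -29 in Sprr2h. Sprr2d, also listed at 0, had them at -193, -108 and -29. The same letters were thus present in a member that was seen and in members that were not.

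The Sprr2a3 window held none of these 3 motifs. It held the STAT motif TTCNNNGAA (8.30% of promoters) at -249 and the ETS core AGGAAG (35.4%) at -92. It shared a run of 272 bases with the Sprr2a1 window, and at most 17 bases in a row with Sprr2b. Those 17 bases end the Sprr2a3 window, and in Sprr2b they lie upstream of the TATA box. The Sprr2a3 window may therefore stop short of a TATA box, and its absence there is not read as a difference between members. Sprr1a held AP-1 matches at -146 and -116, Sprr1b a match at -111, and both held a TATA box. Sprr3 held ETS cores and a TATA box. The ISRE-like motif (3.44%) and the KLF-like motif CACACCC (7.95%) occurred in none of the 7 windows. No 2 motifs overlapped in the windows shown, and each match is a description of letters only.

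Genes whose level went with Sprr2a3 were then ranked over the 50 cells. Besides Sprr2a3, 9165 genes passed a filter of 1 TPM in at least 20% of cells, of which 796 had a rho of 0.3 or more (8.69%) and 308 had a rho of -0.3 or less (3.36%). The value 0.3 is a size threshold and no test. The median rho over all genes was 0.04, and the central 95% lay from -0.33 to 0.42. Among genes past the threshold, 72.1% were on the positive side. This split was unstable. With the number of genes per cell held constant by partial rho it was 409 genes against 668. It was 57.2% on the positive side without N708-N503, the cell with 1316 genes (683 against 511), and 60.3% with a pseudocount of 10 and Pearson's r (585 against 385). Without the averaged near-copy cells it was 60.7% (759 against 491). Sprr2a3 itself had a rho of 0.38 with genes per cell, 0.12 within i7 N704 to N707 and 0.66 within N708 to N710. All averaged near-copy cells, and N708-N503, lie in N708 to N710. The part of averaging in this difference was not tested.

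After its paralogs, the highest partner was Fbp2, a fructose bisphosphatase of gluconeogenesis, with a rho of 0.74. Fbp2 reached 1 TPM in 22 cells, with a highest value of 69.6 TPM, and all 22 also held Sprr2a3. Myo1a, a myosin of the intestinal brush border, had a rho of 0.70, and all of its 20 cells held Sprr2a3. Fabp5, a fatty acid binding protein, had a rho of 0.63 and was found in 18 cells, all with Sprr2a3.

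Lgals4 (galectin-4), a lectin of the intestinal surface, had a rho of 0.73 and was more widely seen, in 41 cells with a median of 101 TPM. Of these, 5 cells lacked Sprr2a3. Ceacam1, an adhesion molecule of the apical membrane, had a rho of 0.63 and was found in 27 cells, 26 of them with Sprr2a3. Nlrp6, a sensor gene of the intestinal epithelium, had a rho of 0.64 and was seen in 16 cells. For 2200002D01Rik the rho was 0.62, and it was seen in 30 cells. Reg3b, a secreted antibacterial lectin, had a rho of 0.63, with a median of 1.31 TPM and a highest value of 2591 TPM in 27 cells. These 8 genes had a positive rho in both i7 and both i5 sets, from 0.45 for 2200002D01Rik in i5 N506 to N517 to 0.81 for Lgals4 in i5 N502 to N505, a condition on which they were chosen. With genes per cell held constant the values were 0.55 (Fabp5) to 0.71 (Lgals4).

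The genes most like Sprr2b were Sprr2a1 (rho 0.95), Sprr2a3 (0.92) and Fbp2 (0.72), over the same 50 cells. For Sprr2a1 they were Sprr2a3, Sprr2b and Fbp2 (0.77). Fbp2 thus followed the paralogs in all 3 rankings, which are not independent.

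At the other end, Xbp1, a transcription factor of the secretory pathway and the unfolded protein response, had the lowest rho, -0.62. It was seen in all 50 cells, with a median of 452 TPM and a highest value of 1818 TPM. Its rho was -0.67 with genes per cell held constant, and Pearson's r was weaker, at -0.34. Ccnl1, a cyclin linked to splicing, had a rho of -0.60 with a median of 108 TPM. The pseudogenes Pisd-ps2 (-0.57) and Pisd-ps1 (-0.54) share sequence with Pisd, so their values are uncertain.

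Junb, an AP-1 subunit, had a rho of -0.53 and the highest level of these genes, with a median of 1795 TPM. Its rho was -0.70 within i5 N502 to N505 and -0.18 within N506 to N517. Tnfaip3, a brake on NF-kB signaling, had a rho of -0.54 and a median of 26.4 TPM. Vim (vimentin) had a rho of -0.52 and was seen in 43 of these Epcam-positive cells, with a median of 297 TPM. Gdf11, a growth factor of the TGF-beta family, had a rho of -0.54 and was seen in 21 cells, 12 of them with Sprr2a3. Ccdc120 had -0.53, and Exoc4, a subunit of the exocyst, had -0.54 but never exceeded 2.14 TPM.

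**Figure D3:**
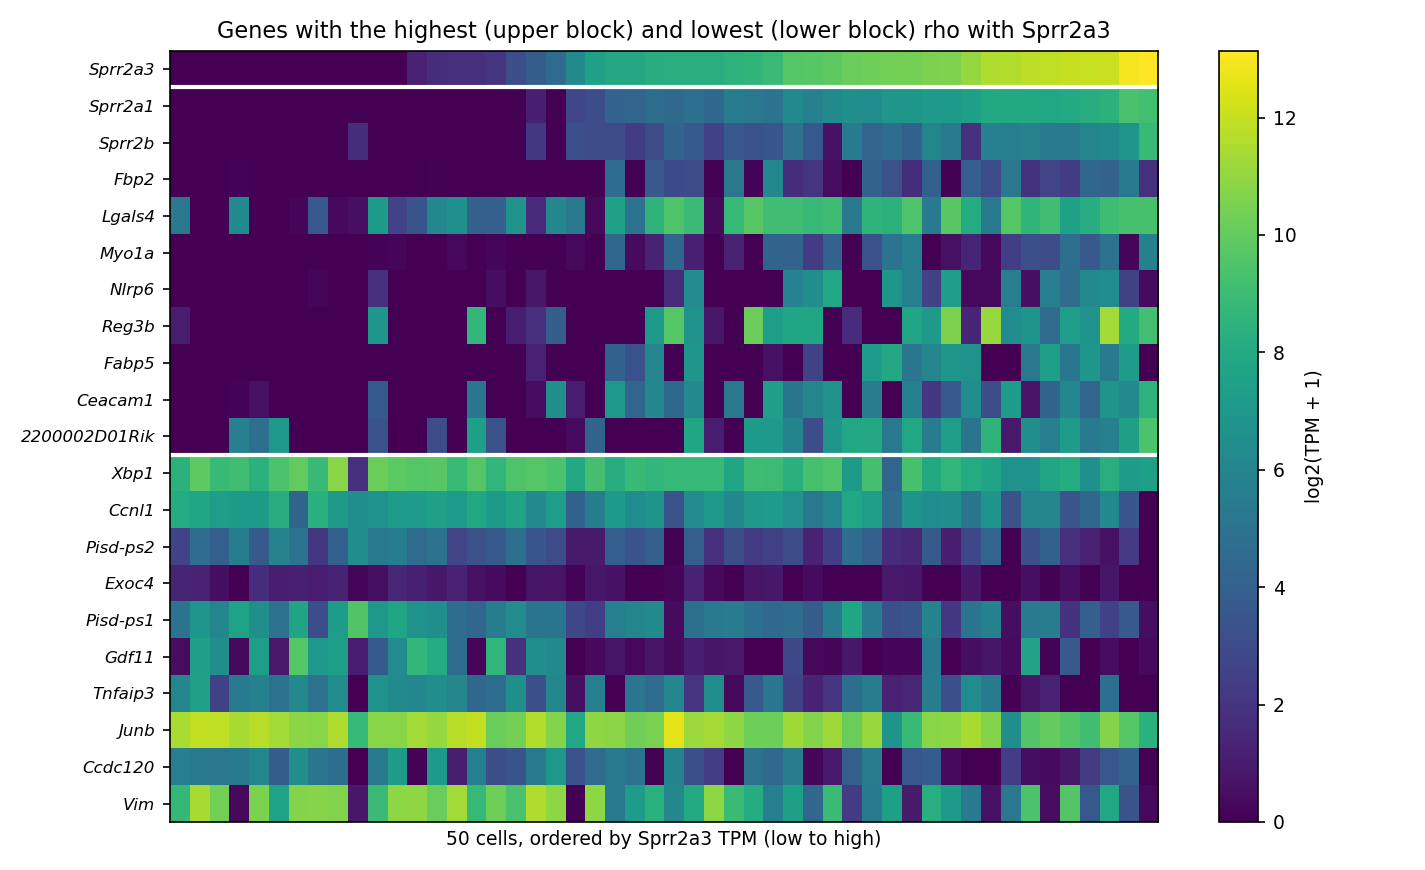
Heat map of log2(TPM + 1) for Sprr2a3 (top row), the 10 genes with the highest rho (upper block) and the 10 with the lowest (lower block), with 50 cells in columns ordered by Sprr2a3. Fbp2, Myo1a and Fabp5 are dark through the cells without Sprr2a3, whereas Xbp1 and Junb are present in every cell, with higher values toward the left.

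Lists of genes were described by their counts past the threshold, beside the 8.69% and 3.36% of all genes. Genes of DNA replication were the list with the highest median rho. Of 18 S phase genes tested, 15 had a rho of 0.3 or more, 0 had -0.3 or less, and the median was 0.43. Tyms, which makes thymidylate, had 0.58 and Mcm2, a subunit of the replicative helicase, 0.57, whereas Gins2 had 0.04. Of 20 G2/M genes, 15 were tested and 11 had a rho of 0.3 or more, with a median of 0.41, among them Mki67 (0.50) and Ccnb2 (0.50). With genes per cell held constant, 9 of the 18 and 8 of the 15 were at 0.3 or more, with medians of 0.30 and 0.32. Without N708-N503 the counts were again 15 and 11. Sprr2a3 had a rho of 0.56 with the mean of the S phase list, between 0.41 and 0.66 in the 4 index sets.

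The cell cycle lists also touched the count of partners. With the S phase mean held constant, 2 of the 15 G2/M genes were at 0.3 or more. Under the same term, 214 of the 796 genes stayed at 0.3 or more, and 208 of the 308 at -0.3 or less. Fbp2 was then at 0.61, Lgals4 at 0.62, Reg3b at 0.55, Xbp1 at -0.62 and Junb at -0.51. Sprr2b had a rho of 0.89 with Sprr2a3. The most alike genes thus stood past the threshold with and without that term, and most of the other positive partners did not.

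Among 7 epithelial antimicrobial genes tested, 3 had a rho of 0.3 or more and 0 had -0.3 or less, with a median of 0.295. These were Reg3b, Reg3g (0.45, median 91.8 TPM) and Duoxa2 (0.35), a maturation factor of the oxidase Duox2. With the S phase mean held constant the count was 2, the median 0.17 and Duoxa2 at 0.256. The count was 3 with genes per cell held constant and without N708-N503. Lcn2 (0.03), which binds bacterial siderophores, and Pglyrp1 (-0.17), which binds peptidoglycan, were widely seen and stayed below the threshold. The list divided within itself and Retnlb, Saa1, Saa2 and Camp never reached 1 TPM.

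AP-1 genes had the lowest median rho, -0.37. Of 10 tested, 6 had a rho of -0.3 or less and all 10 were negative over the 50 cells. The 6 were Junb, Fosl2 (-0.45), Atf3 (-0.44), Maff (-0.42), Mafk (-0.38) and Jun (-0.36). For Jun, Pearson's r on the log2 scale was 0.01, so its negative sign did not hold there. Fos (-0.28), Fosl1 (-0.19) and Jund (-0.13) were short of the threshold, and Jund had 0.22 within i7 N708 to N710. The summed level of the list ranged from 723 to 11616 TPM per cell. The count was 6 with genes per cell held constant and without N708-N503, and 9 with the S phase mean held constant. The i5 sets differed, however. Within i5 N506 to N517, only Fosl2 (-0.45) and Jun (-0.36) of the 6 were at -0.3 or less. Maff had -0.296 there, Junb -0.18, Mafk -0.18, Atf3 -0.04 and Jund 0.11. Within i5 N502 to N505, all of the 6 but Jun (-0.296) were at -0.3 or less, with Junb at -0.70 and Atf3 at -0.65.

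Of 15 Wnt target genes, 3 had a rho of -0.3 or less and 0 had 0.3 or more, with a median of -0.21. The 3 were the feedback inhibitors Nkd1 (-0.45), Notum (-0.42) and Apcdd1 (-0.40), of which Apcdd1 had 0.09 within i7 N708 to N710. Without N708-N503 the count was 6, without near-copy cells 7, with genes per cell held constant 5 and with the S phase mean held constant 1. Lgr5 had 0.16, Ccnd1 0.22 and Myc 0.25, below the threshold, and within i7 N708 to N710 Ccnd1 had -0.08 and Myc 0.70. Among 10 NF-kB response genes, 2 had a rho of -0.3 or less, Tnfaip3 and Nfkbia (-0.44), both inhibitors of the pathway. Among 10 genes of the STAT3 pathway, 1 did, the kinase gene Pim1 (-0.48), and Stat3 itself had -0.29. This count was 4 without N708-N503 and with genes per cell held constant, and 2 without near-copy cells or with the S phase mean held constant. The KLF, ETS, GRHL and OVOL factors gave 2 of 14, Ets2 (-0.37) and Ehf (-0.31). Their count was 1 without N708-N503 or given the S phase mean, 3 given genes per cell, and 0 without the 2 cells with the highest Sprr2a3. The value of Ehf was 0.10 within i7 N708 to N710, so its sign did not hold there.

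Regenerative and fetal-like genes split in both directions. Of 8 tested, 3 had a rho of 0.3 or more and 1 had -0.3 or less. The 3 were Anxa3 (0.52), Ly6a (0.43, also called Sca-1) and Anxa1 (0.40). Tnfrsf12a, the receptor of the cytokine TWEAK, had -0.43, and Anxa5 had -0.06. The list as a whole therefore had no single direction, and its median was 0.20. With the S phase mean held constant, 2 were at 0.3 or more, with a median of 0.13 and Anxa1 at 0.245. Without the 2 cells with the highest Sprr2a3, 4 were.

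Genes that accompany Sprr proteins in the cornified envelope were mostly not seen. Of 27 in the table, 20 never reached 1 TPM in any cell, including Ivl (involucrin), Lor (loricrin) and Tgm3, a transglutaminase. The share of all 24410 rows that never reached 1 TPM was not counted, here or for the marker lists below. Ranked by spread, rows at 0 in every cell, such as Sprr2d, began at rank 17869, so unseen genes were common in the table. Only 2 passed the filter, Ppl (periplakin, 18 cells, rho -0.06) and Sbsn (suprabasin, 10 cells, rho -0.01). For Ppl the index sets went opposite ways, with -0.32 in i7 N704 to N707 and 0.51 in N708 to N710. Tgm1, the membrane transglutaminase of the envelope, was seen in 2 cells. Of 12 squamous markers, 7 never reached 1 TPM, among them Krt5 and Trp63, which define the basal layer of stratified epithelium. Krt14 was seen in 14 cells at up to 6.26 TPM (rho 0.09) and Krt10 in 12 cells at up to 32.0 TPM (rho 0.25). The summed squamous level ranged from 0 to 116 TPM per cell, the highest from Krt15 at 114 TPM in 1 cell. Its median was only 1.33 TPM, close to the 1 TPM threshold. The sum had a rho of 0.34 with Sprr2a3, which was not recomputed with genes per cell or the S phase mean held constant.

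The S100 genes, neighbors of the Sprr genes in the same complex, did not follow as a list. S100a6 was abundant, with a median of 6021 TPM in 50 cells and a rho of -0.21, but -0.37 in i7 N704 to N707 and 0.39 in N708 to N710. Of 7 tested, 1 had a rho of 0.3 or more, S100a11 (0.35), and 0 did with genes per cell or the S phase mean held constant or without the 2 cells with the highest Sprr2a3. The simple epithelial keratins gave 0 of 5 in either direction, with a median of -0.13, and the desmosome genes 0 of 8, with a median of 0.20. Without near-copy cells, 3 of the 8 desmosome genes were at 0.3 or more, and with genes per cell held constant 1 was at -0.3 or less. The heat shock genes gave 3 of 12 at 0.3 or more, among them Hspe1 (0.42) and Hspa8 (0.34), but 1 of 12 with genes per cell held constant or without near-copy cells, 0 given the S phase mean, and 5 without the 2 cells with the highest Sprr2a3.

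**Figure D4:**
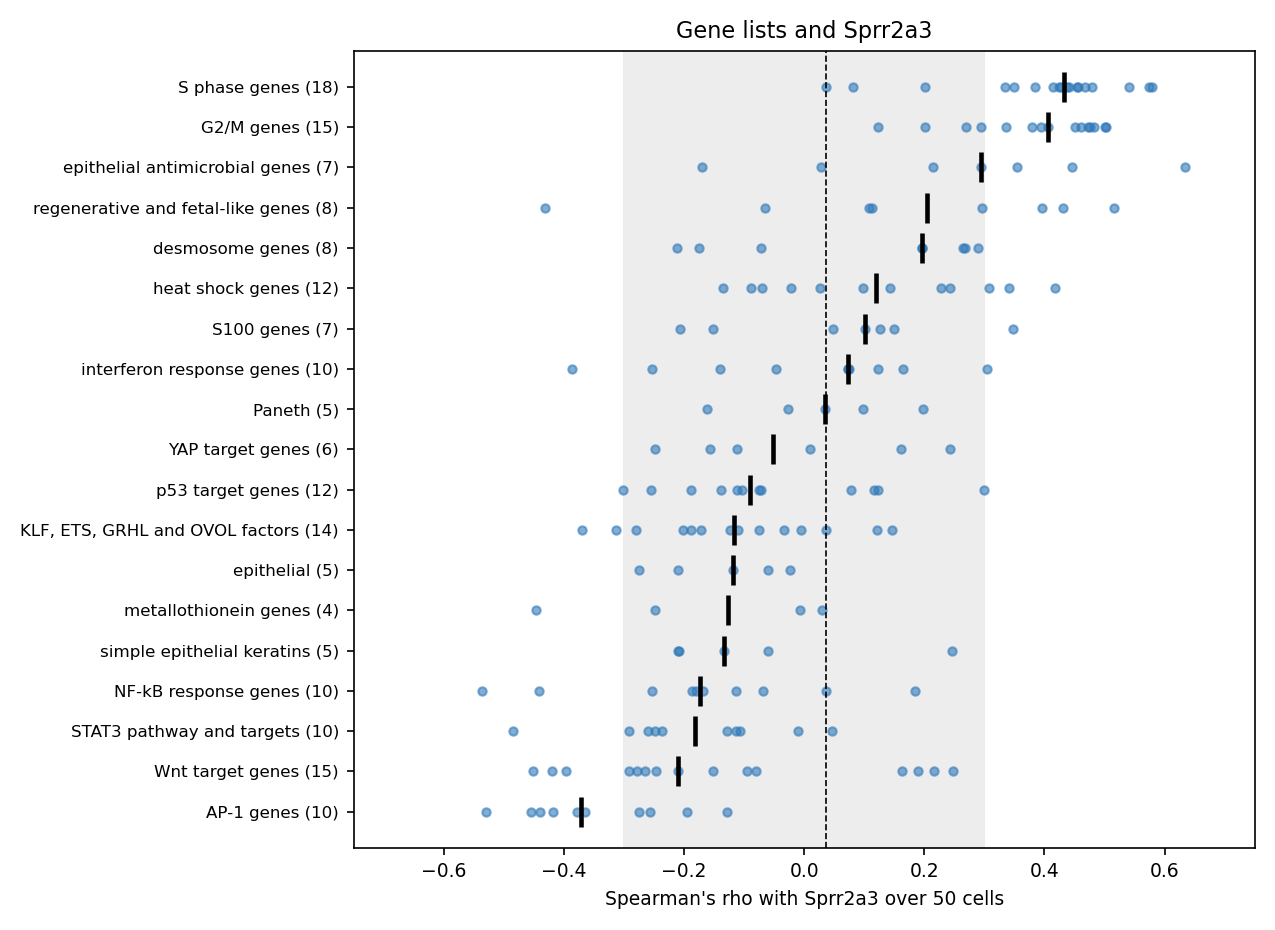
Spearman's rho with Sprr2a3 over 50 cells for each tested member of the lists with 4 or more tested genes (number in brackets); points are genes, black bars list medians, the dashed line the median of all genes (0.04) and the gray band values within 0.3 of 0. S phase and G2/M genes lie to the right, AP-1 genes to the left, and the regenerative and fetal-like list spans both sides.

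Markers of other cells were given beside these results, and their part in them was not tested. Of 7 immune markers in the table, Ptprc and Cd3e never reached 1 TPM, and the summed level ranged from 0 to 246 TPM, the highest from Cd68, while Csf1r was seen in 21 cells at up to 18.4 TPM. Of 4 endothelial markers, Pecam1 and Kdr never reached 1 TPM, with a summed level of 0 to 13.3 TPM. Of 6 fibroblast markers, 4 never did (Col1a2, Col3a1, Dcn, Lum), with a summed level of 0 to 8.92 TPM, and Pdgfra was seen in 25 cells at up to 4.47 TPM.

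Markers of mature colonocytes were scarce, as 4 of 5 (Car4, Aqp8, Slc26a3, Krt20) never reached 1 TPM, and Car1 had a rho of 0.19. Among goblet markers, Agr2, a disulfide isomerase for mucins, was the only one to pass the filter. Agr2 had a rho of 0.40 and was seen in 25 cells, whereas Muc2 was seen in 1 cell. Of 6 Paneth markers 5 passed, with none past the threshold. Their summed level ranged from 0.76 to 356814 TPM, the highest in N704-N517, where the defensin Defa24 took 239134 TPM and Sprr2a3 was 73.7 TPM. Without that cell, 777 genes had a rho of 0.3 or more and 358 of -0.3 or less.

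The remaining lists had few genes past the threshold, and their counts moved with single settings. Of 10 interferon response genes, Ifit2 (0.31) was above the threshold and Irf1 (-0.39) below. The count above was 0 without N708-N503, given genes per cell, given the S phase mean and without the 2 cells with the highest Sprr2a3, and the count below was 2 without near-copy cells. Of 12 p53 target genes, 1 was at -0.3 or less, Zmat3 (-0.30), and this count ranged from 0 (without the 2 cells with the highest Sprr2a3) to 3 (given genes per cell), with 2 without N708-N503. Of 4 metallothionein genes, 1 was, Mt3 (-0.45), and 2 were without near-copy cells. The YAP target genes (6 tested, median -0.05), the EGF family ligands (3 tested, median -0.24) and the epithelial markers (5 tested, median -0.12) had none past the threshold in either direction over the 50 cells. Without N708-N503 each of these 3 lists had 1 gene at -0.3 or less, and without near-copy cells 2 of the 3 EGF family ligands were.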

How the data were processed

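Single-cell RNA-seq of 56 libraries was used. The deposited values are TPM per Ensembl gene, which per the submitters' processing notes involved Bowtie2 2.2.9, RSEM 1.2.31 and bcl2fastq 1.8.4 with GRCm38.p4, with settings, annotation release and strandedness not given in the sources used here. Depth is unknown, so a 0 means only that a gene is listed at 0. Symbols matched 24235 of 24410 IDs.

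Near-copy libraries (Pearson's r above 0.9) were averaged. A gene at 1 TPM or more counted as seen. Spearman's rho used log2(TPM + 1), for genes seen in 20% of cells; partial rho held genes per cell, or the mean of the S phase list, constant. The correlation script was tested on simulated data. The genes named were all Sprr rows, the 10 highest and 10 lowest by rho with Sprr2a3 with 1 sign in both i7 and both i5 sets, up to 2 highest and 2 lowest of each list, and the 3 genes most like Sprr2b and Sprr2a1; further list members were picked for mention with their values known. Members and lists were chosen with earlier results of these data known. Coding sequences, exons and coordinates came from GENCODE M21 and promoters from RefSeq. No protein table was used. 1 gene of 1 list was left out and is not reported here. Alternatives were other thresholds, pseudocounts, Pearson's r, filters, scalings, index sets and left-out cells. Software was SciPy 1.17.1, pandas 2.3.3, matplotlib 3.10.9 and numpy 2.4.6 under Python 3.11.15.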

Additional observations from a re-analysis of the deposited data

How the results depend on the processing

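No paired analysis was possible because the labels name 1 group. The count of cells with Sprr2a3 was 32 of 50 at 10 TPM, 33 with 0.1% of the highest value of index-sharing libraries added to the threshold, and 44 of 56 libraries without averaging. The rho of Sprr2a3 and Sprr2b was 0.8972 to 0.9383 with each i5 index left out, and moved by less than 0.15 under every alternative run. The count of genes at a rho of 0.3 or more (796) was 409 given genes per cell, 2474 in i7 N708 to N710 alone, 1353 in i5 N502 to N505 alone, 400 among genes seen in 50% of cells, and 244 given the S phase mean, an alternative added after the data were seen. It was 737 to 954 with each i5 index left out. The count at -0.3 or less (308) was 668 given genes per cell, 491 without near-copy cells, 511 without the cell with the fewest genes, 964 in i7 N704 to N707 alone and 817 in i5 N502 to N505 alone, and 264 to 454 with each i5 index left out. The cause was not tested. Among named genes with a rho of 0.3 or more in size, the sign reversed for Ehf (0.1044) and Apcdd1 (0.08673) in i7 N708 to N710, and for Jun with Pearson's r (0.01195, and 0.04861 with a pseudocount of 0.1). The 10 highest and 10 lowest partners were chosen for 1 sign in all index sets, so they could not reverse there. Among those below 0.3 in size, 141 recomputed values in 41 genes had the other sign, 50 of them moved by 0.15 or more. Over 113 entries for correlations of named genes, in which that of Sprr2a1 with Sprr2a3 is repeated, 2502 of 2711 recomputed values stayed within 0.15. Without the 2 cells with the highest Sprr2a3, also added later, the counts were 918 and 235. The cells come from 1 mouse, TPM hold no depth, and division of reads among Sprr2a paralogs cannot be checked.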
